A study of Mus musculus with 6 samples.

Results

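The acute phase gene *Saa3* and 6 further genes linked to the acute phase or to STAT3 were followed in CX3CR1-EGFP+ osteoclast precursors (*Saa3*, *Lcn2*, *Hp*, *Lrg1*, *Fgl2*, *Pilra* and *Steap4*). They are 7 of the 24346 gene symbols in the deposited tables, and all 7 were found. They were selected on the difference between these same JAK inhibitor-treated and vehicle-treated mice, with earlier results known, so that difference is described here for the 7 genes and not tested. The cells came from calvarial bone marrow of CX3CR1-EGFP knock-in mice, in which the green reporter is driven by the *Cx3cr1* locus and marks the monocyte lineage, and were sorted as EGFP+. All 6 mice had received LPS in the calvarial periosteum, and none was left without LPS. From the day of that injection 3 mice were given the JAK1-selective inhibitor ABT-317 by mouth and 3 were given vehicle, until the cells were collected. The age of these mice and the number of cells sorted are not given in the sources used here.

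Acute phase proteins are secreted in inflammation, mostly by the liver, where IL-6 acts through gp130, the JAK kinases and STAT3. Myeloid cells make some of them too. *Saa3* encodes a serum amyloid A that is made mainly outside the liver. *Lcn2* encodes lipocalin-2, which withholds iron from bacteria by binding siderophores, and *Hp* encodes haptoglobin, which binds free hemoglobin. *Lrg1* encodes a leucine-rich glycoprotein that modulates TGF-beta signaling, and *Fgl2* a fibrinogen-like protein with procoagulant and immunoregulatory activity. Not all 7 products are secreted. *Pilra* encodes an inhibitory receptor of myeloid cells, and *Steap4* a metalloreductase of iron and copper.

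Values are FPKM, which scale reads to the length of the transcript and the size of the library, so levels can be compared between genes. They summed to between 688372 and 775790 per mouse, and the read depth is unknown. Monocyte genes were abundant in every mouse, with *Ly6c2* between 2751 and 4617 and *Csf1r* between 355 and 422, whereas *Calcr*, the calcitonin receptor of mature osteoclasts, was listed at 0. Genes of granulocyte progenitors were abundant as well, *Elane* lying between 1003 and 4023. Vehicle-treated mouse 3 stood apart from the other vehicle-treated mice, with *Il1r2*, the decoy receptor of IL-1, at 846 against 58.4 and 31.5. The difference of each of the 7 genes is therefore also given without that mouse.

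Promoter windows of 300 bases (RefSeq, build GRCm38.p6), from 250 bases before a start site to 50 bases after it, were read for 6 of the 7 genes. *Hp* had no entry. The start site was the RefSeq start of the gene except for *Saa3*. The RefSeq gene of *Saa3* starts at 46719615 on the minus strand, outside its window. The window contains the GENCODE start of 46715700, but the start site it is built on is not exactly that base. The windows of 4 genes that were lower with JAK inhibitor and of *Fgl2*, which was not, are shown because the treatment acts upstream of STAT factors. They lie at chr7:46715627-46715926, minus strand (*Saa3*), chr2:32387690-32387989, minus strand (*Lcn2*), chr17:56121897-56122196, minus strand (*Lrg1*), chr5:7960222-7960521, plus strand (*Steap4*) and chr5:21372423-21372722, plus strand (*Fgl2*), and are printed 5′ to 3′. Capitals mark matches on either strand to the STAT motif TTCNNNGAA, the C/EBP motif TTGCNNAA or the NF-kB consensus.
Saa3: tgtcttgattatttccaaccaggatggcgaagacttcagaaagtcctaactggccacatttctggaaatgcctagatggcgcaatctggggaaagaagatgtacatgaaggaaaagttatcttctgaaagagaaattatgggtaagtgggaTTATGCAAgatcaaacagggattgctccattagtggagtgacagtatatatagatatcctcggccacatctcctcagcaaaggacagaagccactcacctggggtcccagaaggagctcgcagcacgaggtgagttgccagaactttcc
Lcn2: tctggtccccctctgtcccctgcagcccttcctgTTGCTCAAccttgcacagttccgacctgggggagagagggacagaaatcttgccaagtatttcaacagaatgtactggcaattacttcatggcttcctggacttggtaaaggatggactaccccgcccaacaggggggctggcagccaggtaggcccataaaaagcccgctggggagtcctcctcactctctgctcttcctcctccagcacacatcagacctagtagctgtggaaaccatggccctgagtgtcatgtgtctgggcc
Lrg1: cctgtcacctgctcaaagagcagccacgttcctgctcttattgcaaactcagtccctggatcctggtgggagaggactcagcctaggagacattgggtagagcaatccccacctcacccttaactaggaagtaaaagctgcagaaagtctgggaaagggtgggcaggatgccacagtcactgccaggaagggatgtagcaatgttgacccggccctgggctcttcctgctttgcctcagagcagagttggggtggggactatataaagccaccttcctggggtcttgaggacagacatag
Steap4: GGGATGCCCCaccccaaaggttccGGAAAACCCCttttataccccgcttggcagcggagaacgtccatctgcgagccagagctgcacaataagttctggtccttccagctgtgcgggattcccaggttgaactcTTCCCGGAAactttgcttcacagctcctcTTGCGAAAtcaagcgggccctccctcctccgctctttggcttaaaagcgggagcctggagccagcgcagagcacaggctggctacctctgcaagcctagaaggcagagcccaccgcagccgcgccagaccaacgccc
Fgl2: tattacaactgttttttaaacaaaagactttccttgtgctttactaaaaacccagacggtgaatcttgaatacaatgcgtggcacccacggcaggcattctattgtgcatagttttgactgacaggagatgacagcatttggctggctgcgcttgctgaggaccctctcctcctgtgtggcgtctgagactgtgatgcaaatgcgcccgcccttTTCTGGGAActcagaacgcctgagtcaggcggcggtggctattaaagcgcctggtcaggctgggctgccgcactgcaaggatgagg

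The STAT motif TTCNNNGAA was matched in *Steap4* (TTCCCGGAA) and *Fgl2* (TTCTGGGAA) and had no match in these windows of *Saa3*, *Lcn2*, *Lrg1* or *Pilra*. Of all 32851 windows of this length, 8.3% held it. The C/EBP motif was matched in *Saa3*, from position -99 to -92 with the start site of its window counted as 0, and in *Lcn2* from -216 to -209. It was also matched in *Steap4* and *Pilra*, against 10.8% of all windows. The NF-kB consensus was matched at 2 places in *Steap4* and in none of the other 5 windows, against 8.46% of all windows. No motif overlapped another. A match describes letters in this window and is not evidence of binding.

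*Saa3* (chromosome 7, 46711998 to 46715700, minus strand, GENCODE M21 on GRCm38, the build of the mm10 files) differed most among the 7 genes. Its FPKM was 4090, 2221 and 12974 in vehicle-treated mice 1 to 3 and 452, 249 and 550 in JAK inhibitor-treated mice 1 to 3. The groups were far apart, and the lowest vehicle value was 4.04 times the highest JAK inhibitor value. On the log2(FPKM + 1) scale, JAK inhibitor minus vehicle was -3.63 with a standard error of 0.56, which is 12.4-fold lower. Only 4 of the 11301 tested genes had a more negative difference. With vehicle, *Saa3* was among the most abundant transcripts of the cells, ranking 10th, 35th and 3rd by FPKM in mice 1 to 3, where it made up 0.53%, 0.30% and 1.72% of the summed FPKM. With JAK inhibitor it ranked 286th, 476th and 223rd. Without vehicle-treated mouse 3 the difference was -2.93 (standard error 0.32), or 7.60-fold lower.

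*Lcn2* (chromosome 2, 32384633 to 32388252, minus strand) had an FPKM of 933, 699 and 1413 in vehicle-treated mice and of 351, 220 and 375 in JAK inhibitor-treated mice. The groups did not overlap, and the difference was -1.66 (standard error 0.27), or 3.16-fold lower. It was -1.39 without vehicle-treated mouse 3.

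*Hp* (chromosome 8, 109575128 to 109579172, minus strand) had an FPKM of 3049, 2510 and 4478 with vehicle and 1888, 1569 and 2028 with JAK inhibitor. The groups did not overlap, but the step was small beside that of *Saa3*: the difference was -0.84 (standard error 0.20), or 1.79-fold lower, and -0.61 without vehicle-treated mouse 3. Haptoglobin mRNA was still among the 51 highest transcripts of every JAK inhibitor-treated mouse.

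*Lrg1* (chromosome 17, 56119678 to 56122001, minus strand) was expressed at a far lower level, with an FPKM of 51.5, 37.2 and 143.9 with vehicle and 29.5, 19.2 and 27.2 with JAK inhibitor. The groups did not overlap, although vehicle-treated mouse 2 lay only 1.26-fold above the highest JAK inhibitor-treated mouse. The log2 difference of *Lrg1* leaned on 1 mouse: it was -1.35 (standard error 0.42) with all mice and -0.79 (standard error 0.19) without vehicle-treated mouse 3.

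*Steap4* (chromosome 5, 7960457 to 7982213, plus strand) was barely detected. Its FPKM was 0.638, 0.528 and 1.03 with vehicle, whereas JAK inhibitor-treated mouse 1 was listed at 0 and mice 2 and 3 had 0.008 and 0.429. The groups did not overlap, but the gene was kept for testing only because vehicle-treated mouse 3 reached an FPKM of 1. Admission in this way favors genes that are higher in that group. The difference of *Steap4* was -0.61 (standard error 0.26) with a pseudocount of 1 and -2.17 with 0.1, so its size depends on the pseudocount. Without vehicle-treated mouse 3 it was -0.49.

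*Fgl2* and *Pilra* did not share the lower values. *Fgl2* (chromosome 5, 21372642 to 21378374, plus strand) had an FPKM of 13.3, 13.9 and 10.5 with vehicle and 15.5, 14.7 and 16.1 with JAK inhibitor. All 3 JAK inhibitor-treated mice lay above all vehicle-treated mice, by a small step of 0.29 (standard error 0.14) on the log2 scale, and by 0.17 without vehicle-treated mouse 3. *Pilra* (chromosome 5, 137821952 to 137836281, minus strand) had an FPKM of 155, 94.2 and 140 with vehicle and 145, 117 and 135 with JAK inhibitor. Its groups overlapped, and its difference of 0.05 (standard error 0.18) ranged from -0.16 (without vehicle-treated mouse 2) to 0.20 (without vehicle-treated mouse 1) as single mice were left out, and was 0.12 without vehicle-treated mouse 3. *Fgl2* lies inside *Ccdc146*, which is on the other strand and reached an FPKM of at most 0.031, and *Pilra* overlaps the end of *Zcwpw1*, which reached 7.66; whether strand was used in counting is not stated.

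**Figure D1:**
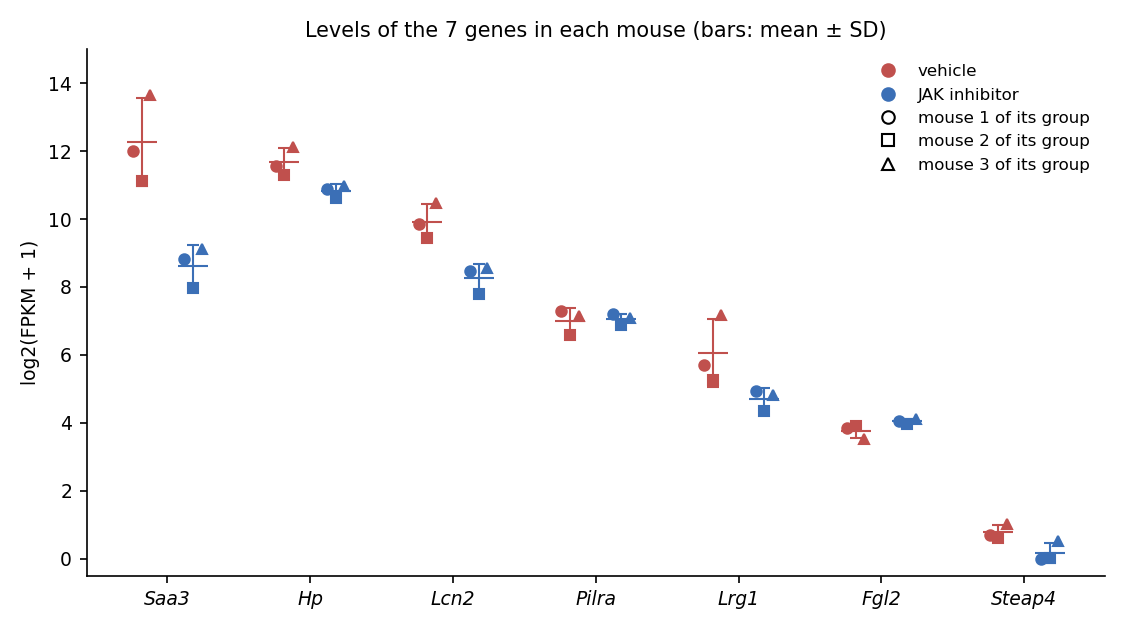
Level of each of the 7 genes in each mouse as log2(FPKM + 1), with vehicle in red, JAK inhibitor in blue, marker shapes for mice 1 to 3 of each group, and bars for the group mean ± SD (n = 3). *Saa3*, *Hp*, *Lcn2*, *Lrg1* and *Steap4* have all blue points below all red points, *Pilra* overlaps, and *Fgl2* lies slightly higher in blue.

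**Figure D2:**
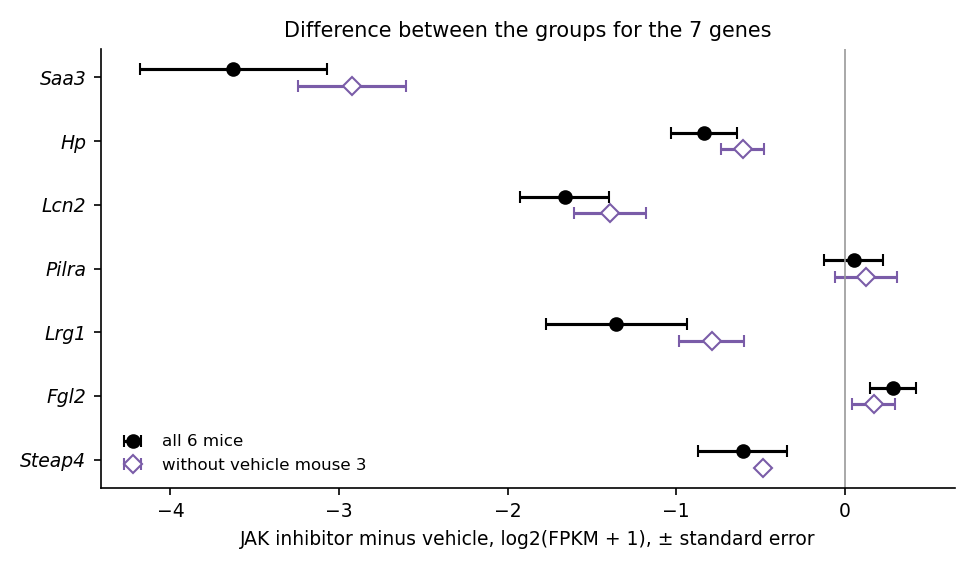
JAK inhibitor minus vehicle on the log2(FPKM + 1) scale for the 7 genes, with all 6 mice (black circles) and without vehicle-treated mouse 3 (open diamonds); bars are standard errors from limma, and *Steap4* has none without that mouse because it no longer passed the filter. *Saa3* moves from -3.63 to -2.93 and *Lrg1* from -1.35 to -0.79, and no gene changes side.

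In all, 5 of the 7 genes had non-overlapping groups with lower values under JAK inhibitor and 1, *Fgl2*, with higher values. Of all tested genes, 12.1% and 9.92% did so. In the limma fit over all 11301 tested genes (adjusted by Benjamini-Hochberg), 0 of the 7 had an adjusted p under 0.05, against 0.133% of all genes. At an unadjusted p under 0.05 the fit had 5 of the 7 lower, against 9.4% of all genes, and 0 higher, against 6.57%. The 5 lower genes include *Steap4*, which passed the filter only through vehicle-treated mouse 3. Since the 7 genes were chosen with this contrast known, these counts carry no evidence of their own, under these or any other settings. The count of 0 depended on the settings. *Saa3* and *Lcn2* had an adjusted p under 0.05 in limma when vehicle-treated mouse 2 or 3 was left out and, with all mice kept, when genes had to reach 1 FPKM in 3 mice or libraries were weighted. *Saa3* alone did so with a pseudocount of 0.1 and with quantile normalization. For the same reason, these calls describe the settings and are no support for a difference.

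The order of the 7 levels changed at its top. With vehicle, the means fell in the order *Saa3* (6428 ± 5745, SD, n = 3), *Hp* (3346 ± 1017), *Lcn2* (1015 ± 364), *Pilra* (129.9 ± 31.8), *Lrg1* (77.5 ± 57.9), *Fgl2* (12.6 ± 1.82) and *Steap4* (0.732 ± 0.264). The ranges of *Saa3* and *Hp* overlapped, as did those of *Pilra* and *Lrg1*; the other neighbors were apart. With JAK inhibitor, *Hp* came first (1829 ± 235), followed by *Saa3* (417 ± 153), *Lcn2* (315 ± 83.3), *Pilra* (132.4 ± 14.4), *Lrg1* (25.3 ± 5.43), *Fgl2* (15.5 ± 0.701) and *Steap4* (0.146 ± 0.245). Only the ranges of *Saa3* and *Lcn2* overlapped there, although *Saa3* was above *Lcn2* in 3 of 3 mice.

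The 3 most abundant genes did not differ in proportion. Within a mouse, the ratio of *Saa3* to *Hp* was 1.34, 0.885 and 2.90 with vehicle and 0.239, 0.159 and 0.271 with JAK inhibitor. The ratio of *Saa3* to *Lcn2* was 4.38, 3.18 and 9.18 with vehicle and 1.29, 1.13 and 1.47 with JAK inhibitor. The ratio of *Lcn2* to *Hp* was 0.306, 0.278 and 0.316 with vehicle and 0.186, 0.140 and 0.185 with JAK inhibitor. All 3 ratios were lower in every JAK inhibitor-treated mouse than in any vehicle-treated mouse. These ratios rest on the same contrast and were not tested.

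**Figure D3:**
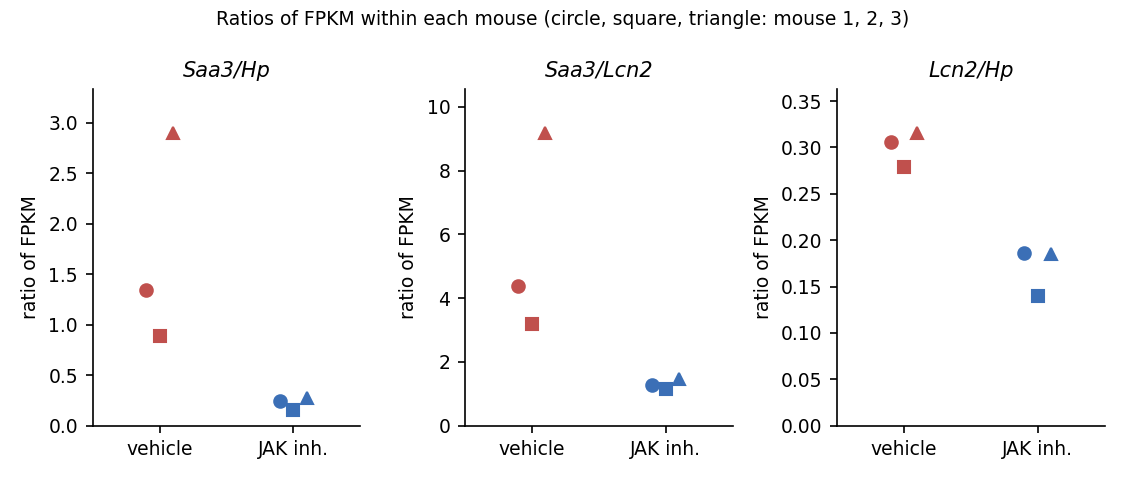
Ratios of FPKM between pairs of genes within each mouse, on linear axes from 0, with vehicle in red and JAK inhibitor in blue and marker shapes for mice 1 to 3. The *Saa3* to *Hp* ratio is at most 0.271 with JAK inhibitor and at least 0.885 with vehicle.

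The mouse in which a gene was highest was shared by several of the 7. Vehicle-treated mouse 3 had the highest vehicle value of 5 genes (*Saa3*, *Lcn2*, *Hp*, *Lrg1* and *Steap4*), and vehicle-treated mouse 2 the lowest of 6, all but *Fgl2*. JAK inhibitor-treated mouse 2 had the lowest JAK inhibitor value of 6, all but *Steap4*. For *Saa3*, vehicle-treated mouse 3 was 4.11 times the mean of the other vehicle-treated mice, for *Lrg1* 3.25 times, and for *Lcn2* and *Hp* 1.73 and 1.61 times.

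The genes whose log2 profile over the 6 mice was nearest were found as the smallest root mean square difference between profiles, each centered on its own mean, among 7741 tested genes with a mean FPKM of at least 5. *Hp* was followed most closely by *Wfdc17* (0.07 log2 units), *F10* (0.09) and *Cstb* (0.11). *Lcn2* had *Serpina3g* (0.14), *Wfdc21* (0.19) and *Adam8* (0.21). *Lrg1* had *Id2* (0.16), *1500011B03Rik* (0.19) and *P2ry13* (0.20). For *Saa3*, *Crispld2*, *Spint1* and *Mmp14* came nearest at 0.63, 0.67 and 0.70. The root mean square of the gene's own centered profile was 1.99 for *Saa3*, 0.91 for *Lcn2* and for *Lrg1* and 0.50 for *Hp*. For *Fgl2* they were *Tmem50b*, *Creg1* and *Clec12a*, for *Pilra* *St3gal5*, *Cd320* and *5430416N02Rik*, and for *Steap4* *Grhpr*, *Mzt2* and *Cirh1a*. Since part of each profile is the contrast itself, this likeness is a description.

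Other acute phase genes were mostly absent from these cells or lower with JAK inhibitor. Of 42 listed genes other than the 7, 16 were listed at 0 in every mouse, among them the fibrinogen chains *Fga*, *Fgb* and *Fgg*, the 5 genes *Serpina1a* to *Serpina1e*, *Serpina3n*, and *Saa4*, and 11 were above 0 in at least 1 mouse but below an FPKM of 1 in all. The other serum amyloid A genes of the cluster beside *Saa3* were at most 1.01 (*Saa1*) and 0.055 (*Saa2*), so *Saa3* supplied nearly all serum amyloid A mRNA; *Saa1* and *Saa2* are close copies whose reads may be split. Of the 15 tested genes, 13 were lower and 2 higher with JAK inhibitor, with a median log2 difference of -0.56 against -0.004 over all tested genes. The lower genes include *Saa1* and *C4b*, which passed the filter only through vehicle-treated mouse 1, and such a filter favors lower values with JAK inhibitor. With at least 1 FPKM required in 3 mice, 13 genes were tested and their median was -0.61. *Cfb*, complement factor B, alone passed an adjusted p of 0.05: its FPKM was 130.3 ± 33.5 with vehicle and 37.5 ± 2.01 with JAK inhibitor (SD, n = 3), and it fell by 1.74 in log2 units (adjusted p = 0.0181 in limma, standard error 0.18). It kept its direction but lost this call whenever any 1 JAK inhibitor-treated mouse was left out. With vehicle-treated mouse 3 omitted, *Serpina3g* and *Cp* passed as well, and without vehicle-treated mouse 2, *Serpina3g* and *Orm1* did, which makes 3 genes in each case.

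At an unadjusted p under 0.05, 7 of the 15 were lower and 1 higher, beside the shares of all genes given above. The protease inhibitor gene *Serpina3g* had 25.7, 17.4 and 37.4 with vehicle and 8.58, 6.21 and 7.81 with JAK inhibitor (difference -1.65, adjusted p = 0.0557 in limma). *Cp*, the copper-carrying ferroxidase ceruloplasmin, had 12.4, 10.6 and 9.57 against 4.08, 6.05 and 3.79 (difference -1.09, adjusted p = 0.0778 in limma). Neither overlapped between the groups, and vehicle-treated mouse 3 had the highest vehicle value of *Serpina3g* but the lowest of *Cp*. *Orm1*, orosomucoid, differed by -1.40 and *Il1rn*, the IL-1 receptor antagonist, by -0.84, also without overlap. Among the most abundant, the LPS co-receptor *Cd14* (difference -0.83) and the metallothionein *Mt1* (-0.61) were lower without overlap, whereas *S100a8* (-0.56) and *S100a9* (-0.18), the calprotectin subunits, overlapped; *S100a9* differed by 0.18 without vehicle-treated mouse 3 and by 0.16 without JAK inhibitor-treated mouse 2. *C3*, at 152 ± 29.7 with vehicle and 177 ± 11.9 with JAK inhibitor, and *Lbp*, the LPS-binding protein, at 33.1 ± 2.82 and 40.5 ± 4.23 (SD, n = 3), had the 2 positive differences.

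**Figure D4:**
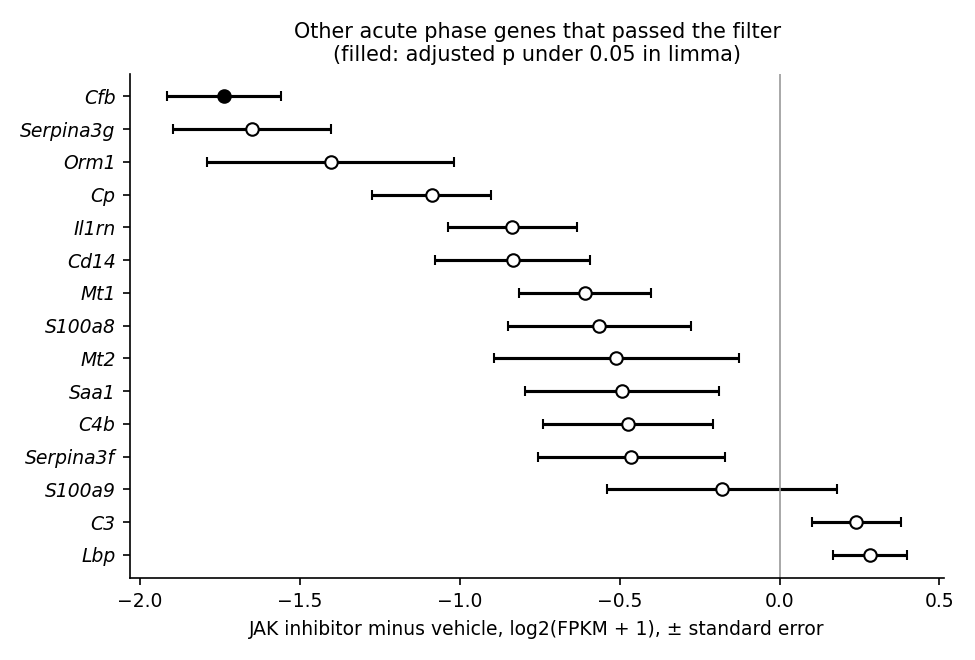
JAK inhibitor minus vehicle on the log2(FPKM + 1) scale, with standard errors from limma, for the 15 tested acute phase genes outside the 7; the filled point marks an adjusted p under 0.05. *Cfb* is lowest at -1.74, 13 genes lie left of 0, and *C3* and *Lbp* lie right of it. Of the 13, *Saa1* and *C4b* passed the filter only through vehicle-treated mouse 1.

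Genes of the IL-6 family and of STAT3 signaling moved both ways. Of 51 listed genes, 44 were tested, 6 were above 0 in at least 1 mouse but below an FPKM of 1 in all, and 1, the oncostatin M receptor *Osmr*, was listed at 0 in every mouse. None had an adjusted p under 0.05 in limma; at an unadjusted p under 0.05, 9 of the 44 were lower and 5 higher, against 9.4% and 6.57% of all tested genes, and the median difference was -0.07. The largest shifts by p were those of *Fos* (-1.07), a subunit of AP-1, and *Bcl3* (-0.84), a co-activator of NF-kB, on the lower side, and of *Il6st* (0.62), which encodes gp130, and the phosphatase gene *Ptprc* (0.32) on the higher side. *Stat3* itself had an FPKM of 69.7, 65.7 and 70.9 with vehicle and 48.2, 54.2 and 59.6 with JAK inhibitor, a difference of -0.35 (standard error 0.10, adjusted p = 0.168 in limma) without overlap. *Cebpb*, the C/EBP factor of the acute phase, differed by -0.40 (adjusted p = 0.219 in limma) and *Junb* by -0.42, and *Ptpn6*, *Mcl1* and *Il10rb* differed by -0.15, -0.08 and -0.12 with overlap.

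Singled out after their values were seen, *Socs3*, the feedback inhibitor that STAT3 induces, had 19.9, 9.48 and 52.3 with vehicle and 8.30, 7.74 and 9.28 with JAK inhibitor. Its difference was -1.27 (adjusted p = 0.238 in limma) and -0.65 without vehicle-treated mouse 3. In the same list, *Socs1* (-0.02), *Cish* (0.04), *Pim1* (-0.06) and *Pim3* (-0.30) had overlapping groups. These too were named after their values were seen. *Il6* mRNA was low in every mouse, between 1.75 and 3.12, and *Jak1*, whose product the drug inhibits, differed by -0.08 with overlapping groups.

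Genes for molecules that bind the 7 products, or are related to them, did not move together. Of 37 listed genes, 35 were in the tables and 28 were tested; 0 had an adjusted p under 0.05 in limma, 5 of the 28 were lower and 3 higher at an unadjusted p under 0.05, against 9.4% and 6.57% of all tested genes, and the median difference was 0.04. Among receptors that serum amyloid A can engage, *Fpr2* had 129, 93.9 and 198 with vehicle and 65.6, 44.8 and 60.2 with JAK inhibitor (difference -1.24, adjusted p = 0.102 in limma), and *Tlr2* differed by -0.72, both without overlap. *Fpr2* had an adjusted p under 0.05 in limma when vehicle-treated mouse 2 or 3 was left out. *Scarb1*, the scavenger receptor of lipoproteins, was at 112.2 ± 1.73 with vehicle and 129.9 ± 11.6 with JAK inhibitor (SD, n = 3). Listed with these receptors, *P2rx7* (0.30) was higher without overlap. *Cd36* (0.84), *Tlr4* (-0.48) and *Ager* (-0.19) had overlapping groups. These were named after their values were seen. For haptoglobin, the receptor gene *Cd163* was low, between 0.531 and 2.15. *Hba-a1*, a hemoglobin chain, was at most 0.064 with vehicle and 2.64, 1.96 and 38.6 with JAK inhibitor. It is 1 of the 3 higher genes and passed the filter only through JAK inhibitor-treated mice. *Hba-a1* and *Hba-a2* are near-identical, so their split is uncertain.

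The lipocalin-2 receptor gene *Slc22a17* did not reach an FPKM of 1 in any mouse. Both named Fc gamma receptors that can bind the *Fgl2* product were abundant: *Fcgr2b*, the inhibitory one, differed by -0.59 without overlap and *Fcgr3* by 0.04. *Pilrb1* and *Pilrb2*, the activating paired receptors encoded next to *Pilra*, had overlapping groups, with differences of 0.22 and 0.21, and their adaptor gene *Tyrobp* differed by 0.12; reads may be shared between these paralogs. Of the *Steap* family, *Steap3* was the one expressed, at 2.85 ± 0.658 with vehicle and 4.61 ± 0.042 with JAK inhibitor (SD, n = 3; difference 0.56, adjusted p = 0.192 in limma), while *Steap1* and *Steap2* stayed below 1. The ferritin chains *Fth1* and *Ftl1* differed by -0.67 and -0.16, and *Ftl1* by 0.22 with quantile normalization. *Cd163*, *Slc22a17*, *Pilrb1*, *Pilrb2*, *Steap1* and *Steap2* were chosen after their values were seen.

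Markers of other cell types were measured beside these results. In sorted bulk samples, fewer cells of a type and less RNA per cell cannot be told apart. Of all tested genes, 50.6% were lower with JAK inhibitor. At an unadjusted p under 0.05 in limma, 9.4% of them were lower and 6.57% higher. Of 6 markers of neutrophil secondary granules, which in neutrophils hold lipocalin-2 and haptoglobin, 5 were higher and 1 lower with JAK inhibitor (3 and 1 at an unadjusted p under 0.05). Their summed FPKM was between 947 and 990 with vehicle and between 1016 and 2176 with JAK inhibitor. *Camp*, cathelicidin, had 264, 289 and 182 with vehicle and 1097, 470 and 824 with JAK inhibitor, the opposite direction to *Lcn2* and *Hp*. *Mmp8*, the collagenase of these granules, had 189, 200 and 356 with vehicle and 110, 94.9 and 139 with JAK inhibitor, the same direction as *Lcn2* and *Hp*. *Mmp8* was singled out after its values were seen. Of 9 measured markers of mature neutrophils, 7 were lower and 2 higher (5 and 0 at an unadjusted p under 0.05), and their sum was 260, 166 and 1044 in vehicle-treated mice against 160, 105 and 168, with *Il1r2* making up most of vehicle-treated mouse 3. Of 5 measured markers of neutrophil progenitors, 3 were higher and 2 lower (3 and 1 at an unadjusted p under 0.05). Their sums were between 5394 and 9879 with vehicle and between 12305 and 13270 with JAK inhibitor.

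The 10 macrophage markers summed to between 721 and 872 with vehicle and between 527 and 666 with JAK inhibitor, with 9 lower and 1 higher (4 and 0 at an unadjusted p under 0.05). The 8 monocyte markers summed to between 4446 and 6355 with vehicle and between 5770 and 6257 with JAK inhibitor. Of these, 3 were lower and 5 higher (2 and 1 at an unadjusted p under 0.05). Of the 7 osteoclast markers, 6 were tested and all were lower (5 at an unadjusted p under 0.05). Their sums were 166 to 577 with vehicle and 107 to 112 with JAK inhibitor. *Ocstamp*, *Dcstamp* and *Oscar* passed the filter only through vehicle-treated mice. Such a filter favors genes that are lower with JAK inhibitor, so the count of lower markers is partly a result of it. The part of these cell types in the values of *Saa3*, *Lcn2*, *Hp* and *Lrg1* was not tested. The hepatocyte genes *Alb*, *Apoa1* and *Apob*, all 4 adipocyte genes, and the stromal genes *Dcn*, *Lum* and *Pdgfra* were listed at 0 in every mouse. The other hepatocyte genes summed to 8.39 in JAK inhibitor-treated mouse 1 and to at most 0.447 elsewhere, and the other stromal genes to between 3.81 and 7.15. Erythroid markers summed to between 0.69 and 2.77 with vehicle and to 7.54, 6.09 and 51.9 with JAK inhibitor. Of the endothelial, B cell, T and NK cell and dendritic cell lists, the T and NK list had sums that did not overlap (170 to 365 with vehicle and 491 to 562 with JAK inhibitor), nearly all of it *Nkg7*, while *Cd3e* stayed below 1. No marker of any list had an adjusted p under 0.05 in limma.

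**Figure D5:**
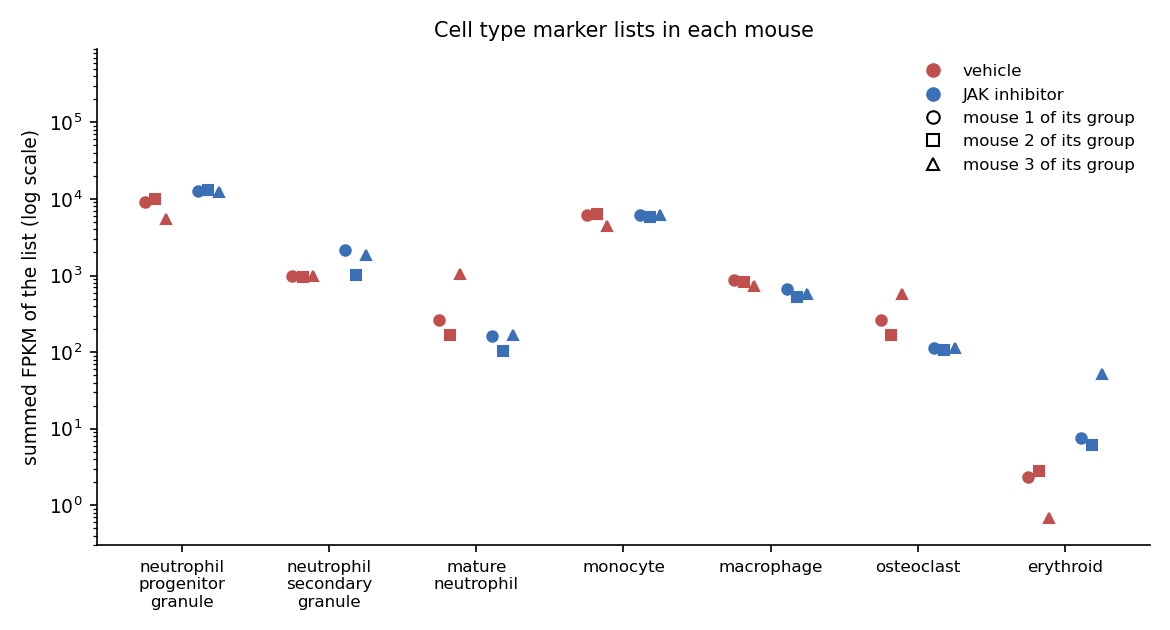
Summed FPKM of 7 cell type marker lists in each mouse on a log axis, with vehicle in red, JAK inhibitor in blue and marker shapes for mice 1 to 3. Mature neutrophil and osteoclast markers are highest in vehicle-treated mouse 3. The sum of secondary granule markers is higher in all JAK inhibitor-treated mice, but only just in mouse 2 (1016 against at most 990 with vehicle).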

How the data were processed

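RNA-Seq was measured in sorted CX3CR1-EGFP+ cells of 6 mice, 3 per group, on an Illumina HiSeq instrument in single-end mode. The authors deposited 1 table of FPKM values per mouse; the submitters' processing notes name TopHat2 2.0.13, Bowtie2 2.2.3, SAMtools 0.1.19 and Cufflinks 2.2.1 with the build mm10, and the annotation is not given in the sources used here. The methods name a stranded mRNA kit and the labels a full-length cDNA kit with a Nextera library, so the library type is unclear. No counts were used, so no counting intervals can be given.

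No further scaling between mice was applied. Genes reaching 1 FPKM in 1 or more mice were compared on log2(FPKM + 1) with limma 3.58.1 in R 4.3.3 (moderated by empirical Bayes, mean-variance trend, p-values adjusted by Benjamini-Hochberg), which was tested on simulated data. Fold changes on this scale understate the change of low genes. Groups came from the sample titles. The 7 genes and all lists were chosen with earlier results of these data known; the lists were written by hand from general knowledge. From each of 3 lists the text names every gene with an adjusted p under 0.05, up to 4 more with the smallest unadjusted p and up to 6 more with the highest mean, and genes at 0. The 3 nearest profiles were named for each of the 7 genes. Alternatives were another pseudocount, filters, scalings, models, a replicate block and each mouse left out. Promoter windows are from RefSeq (GRCm38.p6) and positions from GENCODE M21. Other steps used Python 3.11.15, pandas 2.3.3, NumPy 2.4.6 and matplotlib 3.10.9.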

Additional observations from a re-analysis of the deposited data

How the results depend on the processing

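The directions of *Saa3*, *Lcn2*, *Hp*, *Lrg1*, *Steap4* and *Fgl2* held under every alternative run for them (11 each, 10 for *Steap4*, which drops out without vehicle-treated mouse 3), and each stayed within 1 SD of the reported value, except *Steap4* at -2.17 with a pseudocount of 0.1. Their groups did not overlap, so leaving out 1 mouse, another pseudocount or library weights could not turn a direction. Leaving out 1 mouse cannot move a difference by 1 SD either, because that SD comes from all 6 mice. The replicate block left each difference unchanged. Only quantile normalization and median ratio scaling could have turned a direction. *Saa3* ranged from -4.20 to -2.93, *Lcn2* from -1.90 to -1.39, *Hp* from -1.02 to -0.61, *Lrg1* from -1.75 to -0.79 and *Fgl2* from 0.17 to 0.36. Over all genes, the calls at an adjusted p under 0.05 numbered 15 as reported, 4 without a filter, 34 with at least 1 FPKM in 3 mice, 2 without the trend, 63 with library weights and 3 to 95 with 1 mouse left out (95 without vehicle-treated mouse 2 and 94 without vehicle-treated mouse 3, against 3 without JAK inhibitor-treated mouse 3). Among acute phase genes it was 2 with a pseudocount of 0.1 and with the stricter filter, 0 without a filter and without the trend, 3 with library weights and 0 to 3 with 1 mouse left out; among partners it was 0 to 2 with 1 mouse left out. The median of the partners was 0.04 as reported, ranged with 1 mouse left out from -0.0258 (without JAK inhibitor-treated mouse 1) to 0.0932 (without JAK inhibitor-treated mouse 2), and was -0.0240 without vehicle-treated mouse 1; with quantile normalization it was 0.12. With the replicate number as a block the counts were 67 over all genes, 3 of the 7 genes (*Saa3*, *Lcn2* and *Hp*), 3 acute phase genes, 2 of the IL-6 family and STAT3 list and 1 partner. Same-numbered mice shared only a number (correlations of their deviations over genes 0.02, 0.05 and -0.0002, and 2 of 6 mice correlated best with their own number). Among list genes named by rule, the sign also turned for *Mcl1* (0.007 without vehicle-treated mouse 3) and *Fcgr3* (-0.019 without JAK inhibitor-treated mouse 1). The causes of these shifts were not tested. The read depth behind an FPKM is unknown, which limits *Steap4* most.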

Other observations

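The spread between mice was wider with vehicle for 6 of the 7 genes, all but *Steap4*. On the log2(FPKM + 1) scale the SD of *Saa3* was 1.29 with vehicle and 0.59 with JAK inhibitor, that of *Lrg1* 1.005 and 0.32, that of *Hp* 0.42 and 0.19, that of *Pilra* 0.38 and 0.16 and that of *Lcn2* 0.51 and 0.42 (n = 3 each). Over all tested genes, 58.6% had the larger SD with vehicle. No test of the spreads was run.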
